A study of Mus musculus with 30 samples.

Results

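The 10 genes described here are *Dazl*, *Ddx4*, *Mael*, *Sycp3*, *Sycp1*, *Tex101*, *Hormad1*, *Stk31*, *Tex19.1* and *Dppa3*, germline genes known for their repression by DNA methylation. They were found by symbol through their Ensembl identifiers, and are 10 of the 55421 genes of the count table. Their RNA was followed in mouse embryonic stem cells (mESCs) in which whole X chromosomes or large X-linked segments had been lost. DNA methylation itself was not measured in these files, so the description of the genes as methylation-sensitive is background and was not tested.

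Bulk RNA-seq covered 30 libraries of 17 conditions. All cells were female hybrids with a 129/Sv (129) and a Cast/Ei (Cast) genome, grown with serum and leukaemia inhibitory factor on fibroblast feeders that were removed before RNA extraction. XX Wildtype and XX Rnf12 had 2 libraries each, and XX Rnf12 (genotype Rnf12 +/-) lacks the 129 copy of *Rnf12* (*Rlim*), an X-linked ubiquitin ligase gene. The 13 deletion lines carry this Rnf12 +/- background and a heterozygous deletion of an X-linked segment (Deletion A, B, AB, C, C-G, D, E, F, H, I, I-TEL, J or K). The lines of Deletion C-G, AB, B and A were represented by 1 clone and the other 9 lines by 2 clones, and I-TEL and J were made from another Rnf12 +/- line than the rest. The XO cells arose by loss of an X chromosome, XCastO129 retaining the Cast X and X129OCast the 129 X, with 2 libraries each. Going by *Rlim* RNA (values below), XCastO129 keeps the intact Cast copy of *Rnf12*, and X129OCast has no intact copy.

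Germline genes of this class carry CpG-dense promoters that are methylated at implantation and stay silent in somatic tissues. In mESCs they are also held down by a Polycomb complex, PRC1.6, whose subunits MGA and MAX bind E-boxes and whose subunit E2F6 binds E2F sites. Female mESCs with both X chromosomes active are known for low global DNA methylation, and XO or XY mESCs for higher methylation, which makes RNA of these genes a common readout of the difference.

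All 10 genes lie on autosomes, so that every line holds both of their alleles. RefSeq promoter windows (GRCm38.p6, 250 bases before to 50 after the start) were given for 9 of the 10, and *Dppa3* is named only. These 9 windows hold 15 to 38 CpG dinucleotides, against a median of 7 and an upper quartile of 20 over 27025 genes. The E-box CACGTG, which reads the same on both strands, is in 6 of the 9 windows and in 7.24% of all windows. The E2F-like letters GCGGGAA or TTCCCGC are in 3 of the 9 and in 4.67% of all. The letters GCATGCGC or GCGCATGC, the core of the site of NRF1, an activator whose binding is blocked by CpG methylation, are in 4 of the 9 and in 2.80% of all, and a GCGCATGCGC counts on both strands. The motifs were chosen after the sequences were seen. Each of them contains a CpG, and these windows hold more CpG than the median window, so the shares are a description. These matches are letters only and were not tested as binding sites.

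The sequences below are the promoters of the genes the results turn on, read 5′ to 3′ along the gene, with the letters of the 3 motifs in capitals. All but that of *Ddx4* end before the first base of the gene in both RefSeq and GENCODE. *Dazl* (chr17:50293637-50293870, minus strand), *Sycp3* (chr10:88459337-88459568, plus strand) and *Hormad1* (chr3:95559427-95559676, plus strand) were lower in both XO lines. *Stk31* (chr6:49395289-49395538, plus strand) and *Tex19.1* (chr11:121145893-121146142, plus strand) were lower in 1 XO line each, and *Mael* (chr1:166238748-166238994, minus strand) in neither. Of *Ddx4*, higher in 1 XO line than in XX Rnf12, only 30 bases around its E-box are given (chr13:112652322-112652351, minus strand). These lie before the RefSeq start but inside the gene as annotated by GENCODE, whose start is 165 bases further upstream.
Dazl: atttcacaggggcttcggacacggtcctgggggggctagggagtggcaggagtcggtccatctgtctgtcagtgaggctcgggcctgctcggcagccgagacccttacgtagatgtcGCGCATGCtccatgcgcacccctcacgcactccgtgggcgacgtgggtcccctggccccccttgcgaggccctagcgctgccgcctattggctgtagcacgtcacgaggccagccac
Sycp3: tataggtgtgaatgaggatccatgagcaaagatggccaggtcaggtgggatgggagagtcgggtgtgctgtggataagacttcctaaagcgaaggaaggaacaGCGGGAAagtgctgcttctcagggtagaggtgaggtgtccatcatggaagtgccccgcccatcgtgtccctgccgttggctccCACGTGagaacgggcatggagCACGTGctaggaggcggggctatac
Hormad1: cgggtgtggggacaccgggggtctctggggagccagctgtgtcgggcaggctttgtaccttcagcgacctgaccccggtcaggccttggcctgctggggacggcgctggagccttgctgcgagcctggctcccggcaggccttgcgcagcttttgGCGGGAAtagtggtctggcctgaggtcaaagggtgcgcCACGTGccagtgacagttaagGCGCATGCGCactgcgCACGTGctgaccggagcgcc
Stk31: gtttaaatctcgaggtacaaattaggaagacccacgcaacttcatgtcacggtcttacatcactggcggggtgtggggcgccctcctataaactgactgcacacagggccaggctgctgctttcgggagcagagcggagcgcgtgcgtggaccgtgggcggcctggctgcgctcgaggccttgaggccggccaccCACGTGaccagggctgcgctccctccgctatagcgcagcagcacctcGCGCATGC
Tex19.1: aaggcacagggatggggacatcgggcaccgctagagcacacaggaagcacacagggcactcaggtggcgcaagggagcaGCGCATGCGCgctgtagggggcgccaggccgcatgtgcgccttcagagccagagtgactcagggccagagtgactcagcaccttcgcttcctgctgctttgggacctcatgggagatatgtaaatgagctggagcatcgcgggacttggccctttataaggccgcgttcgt
Mael: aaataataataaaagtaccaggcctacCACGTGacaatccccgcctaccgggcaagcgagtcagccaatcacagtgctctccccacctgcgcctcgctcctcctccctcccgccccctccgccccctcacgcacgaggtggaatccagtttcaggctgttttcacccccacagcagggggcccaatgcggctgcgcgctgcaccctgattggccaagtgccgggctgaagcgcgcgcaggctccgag
Ddx4: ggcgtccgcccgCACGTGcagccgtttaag
*Hormad1* and *Sycp3* each hold 2 E-boxes and 1 E2F-like match, and *Hormad1* also the NRF1-like letters. *Ddx4* has both an E-box and an E2F-like match in its window, and *Dazl* has neither. Any link between these letters and the levels of the genes was not tested.

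Counts of all reads summed to between 8816184 and 21181405 per library, with the 20 libraries of 12 deletion lines (a batch of their own) the shallowest. XX Wildtype, XX Rnf12 and Deletion E formed the first paired-end batch of 6 libraries. The 4 libraries of the XO lines were sequenced from 1 end only and on another instrument, so library batch, read type and the loss of an X cannot be told apart. The labels were checked on the X chromosome: 129 reads made up 50.0% to 54.6% of allelic X-linked reads outside the deletions in the 26 libraries with 2 X chromosomes, 4.56% and 4.64% in XCastO129 and 99.7% in both X129OCast libraries. *Rlim* was at 193 to 211 TPM (a length-scaled share of the library) in XX Wildtype, 77.6 to 79.7 in XX Rnf12, 50.4 to 144 in the deletion lines, 71.2 to 77.8 in XCastO129 and 3.53 in both X129OCast libraries. The pluripotency markers Pou5f1, Nanog and Esrrb were detected in every library, at no less than 991, 237 and 970 CPM (the share of the library, not scaled for length). The 10 fibroblast markers summed to between 157 and 1027 CPM per library, none was at 0 in any library, and their part in the results was not tested. In these bulk samples, fewer cells with a transcript and less transcript per cell cannot be told apart.

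**Figure D1:**
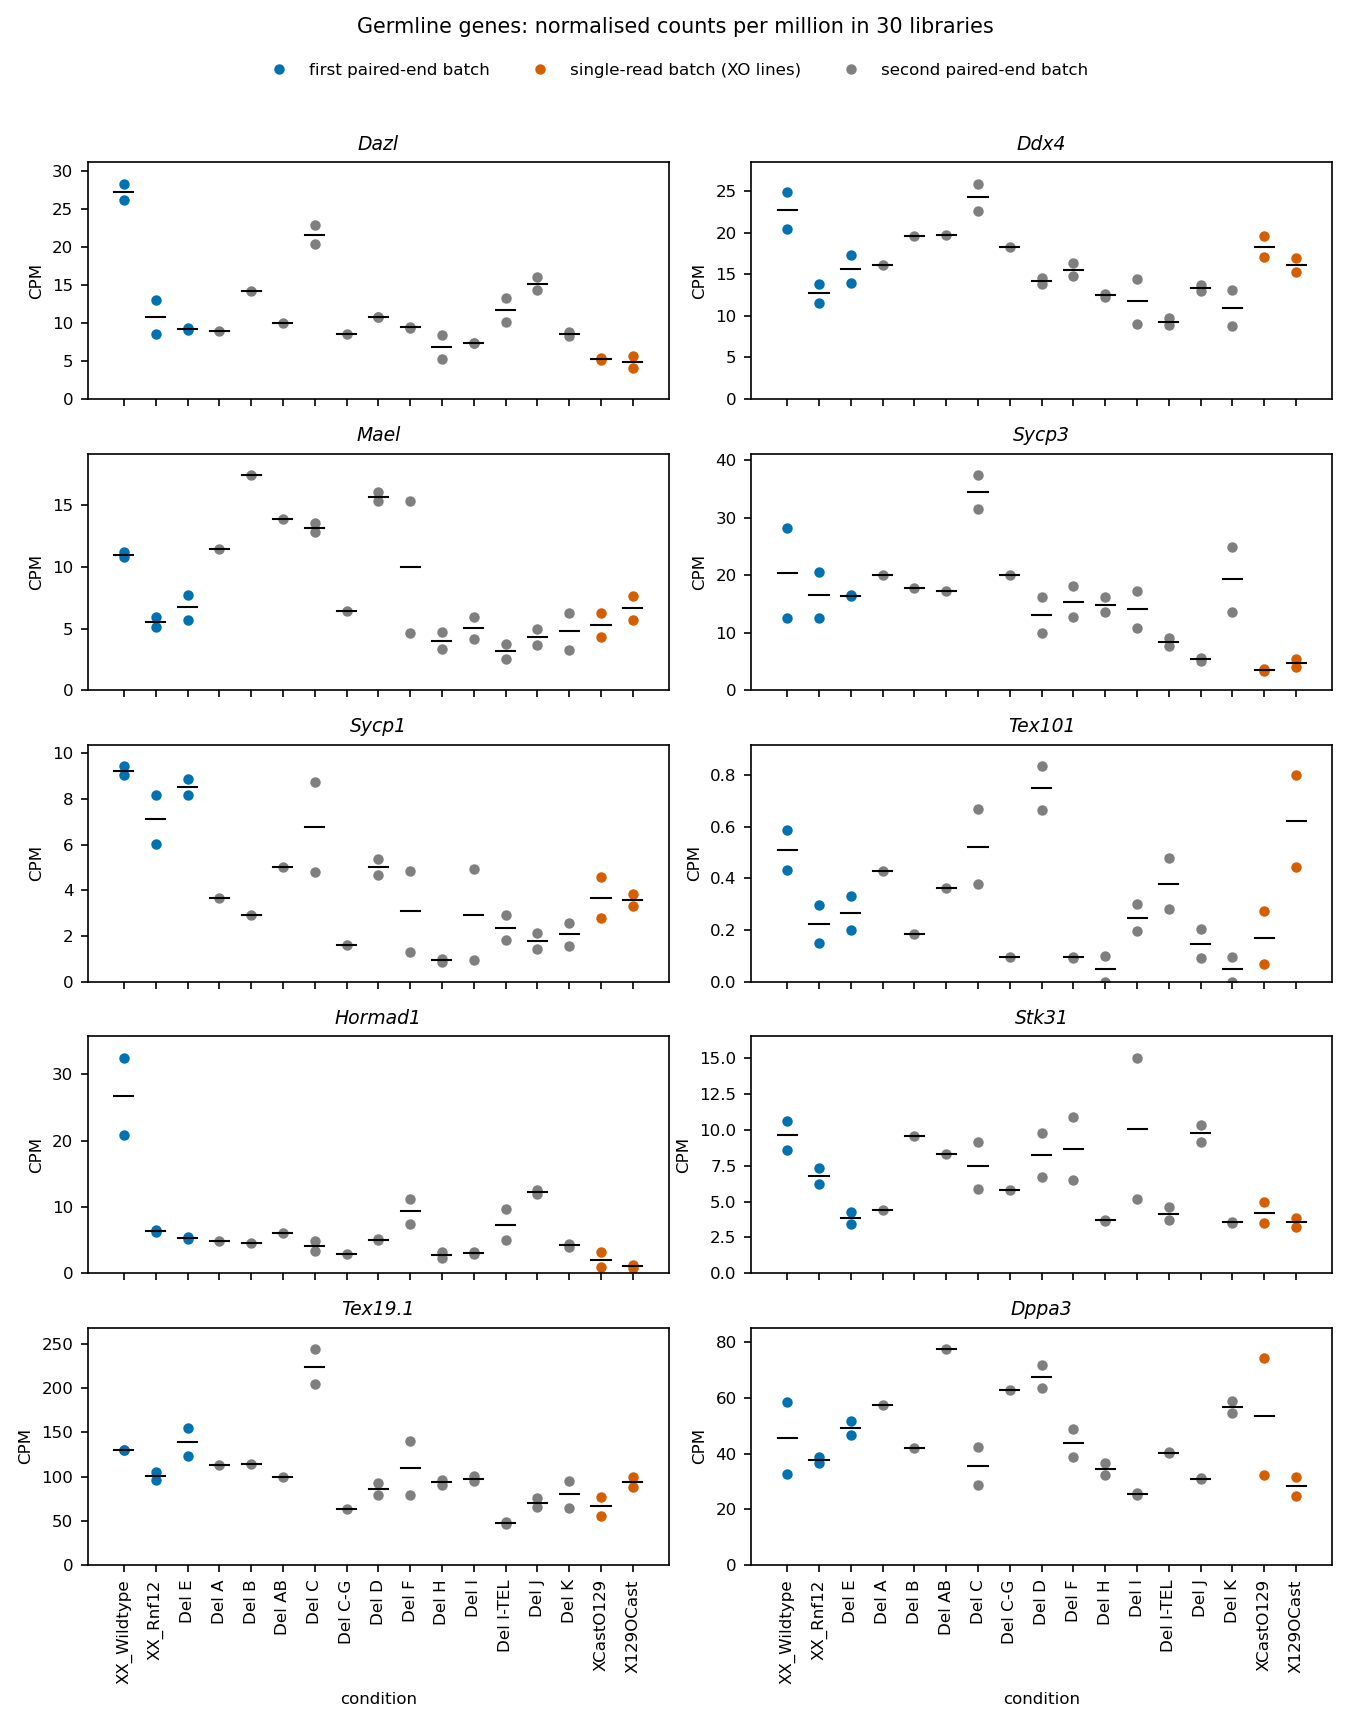
Normalised CPM of the 10 germline genes (y axis, from 0, with its own scale per gene) by condition (x axis), with 1 point per library and a black line at the mean, in blue for the first paired-end batch, grey for the 12 deletion lines of the second and orange for the XO lines. *Sycp3*, *Hormad1* and *Dazl* are lowest in the XO lines, whereas *Ddx4* at 15.2 to 19.6 CPM in XO cells lies among the deletion lines.

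Per exon length, *Tex19.1* (mean of 183 TPM over the 30 libraries) and *Dppa3* (168 TPM) were the most abundant of the 10. *Sycp3* (40.0 TPM), *Ddx4* (17.3 TPM), *Mael* (15.5 TPM), *Hormad1* (12.8 TPM) and *Dazl* (10.0 TPM) followed. *Stk31* and *Sycp1* averaged 6.78 and 3.99 TPM, and *Tex101* 0.611 TPM. *Tex101*, a germ cell surface protein gene, had between 0 and 12 counts per library (0 to 0.832 CPM) and missed the minimum of 0.5 CPM averaged over the conditions, so that 9 of the 10 genes were tested. Of near-copies that could share reads, *Tex19.2* had 3.93% of the counts of *Tex19.1* and *Sycp1-ps1* 0.794% of those of *Sycp1*. The X-linked pseudogene *Dppa3-ps* had 31.9% of the counts of *Dppa3*, at 8.79 to 21.5 CPM in the XO libraries and 11.9 to 12.6 in XX Rnf12, so the values of *Dppa3* are uncertain.

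The first comparison set XX Rnf12, with the heterozygous *Rnf12* deletion that all deletion lines carry, against XX Wildtype. XX Rnf12 was made by gene editing and drug selection. The *Rnf12* deletion and other differences between these lines cannot be told apart. *Hormad1*, *Dazl* and *Ddx4* were lower in XX Rnf12 than in XX Wildtype, and all 9 tested genes had a fold change below 0 on the log2 scale. Those of *Sycp3* (-0.30 ± 0.33), *Sycp1* (-0.38 ± 0.45) and *Dppa3* (-0.28 ± 0.28) were within 1 SE of 0. The signs of *Sycp3* and *Dppa3* turned in fits without 1 library, and the share of all genes below 0 was not counted. Called here and below means a Benjamini-Hochberg adjusted p under 0.05 in edgeR's quasi-likelihood test over 16699 genes. With this rule 3 of 9 genes were called lower, against 1.68% of all genes, and none was called higher, against 1.32%; 4 of the 9 had an unadjusted p under 0.05, and DESeq2 called 3 genes. The median log2 fold change was -0.51 over the 9 genes and 0.00 over all genes.

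*Hormad1*, a protein of the meiotic chromosome axis, was at 20.8 and 32.5 CPM in XX Wildtype and at 6.22 and 6.59 CPM in XX Rnf12. The groups did not overlap, with a log2 fold change of -2.06 ± 0.34 (SE, 2 against 2 libraries; adjusted p = 0.00200). *Dazl*, an RNA-binding regulator of translation in germ cells, was at 26.1 and 28.3 CPM in XX Wildtype and 8.56 and 13.0 CPM in XX Rnf12 (log2 fold change -1.33 ± 0.20, adjusted p = 0.000962). *Ddx4*, the Vasa helicase of germ granules, was at 20.4 and 24.9 against 11.6 and 13.8 CPM (log2 fold change -0.83 ± 0.19, adjusted p = 0.0188). Neither these 3 genes nor the uncalled *Mael*, *Sycp1*, *Stk31* and *Tex19.1* overlapped between the groups. The share of all genes without overlap was not counted, so the lack of overlap is a description only. *Mael*, a piRNA pathway protein, had 10.8 and 11.2 against 5.13 and 5.94 CPM and was not called (log2 fold change -0.99 ± 0.37, adjusted p = 0.206). *Sycp3* overlapped, since its XX Wildtype libraries were at 12.5 and 28.2 CPM and those of XX Rnf12 at 12.5 and 20.5. The 3 calls rest on the spread shared over all 30 libraries: a fit of the 4 libraries alone called none of the 9 genes, with adjusted p of 0.316 for *Dazl* and *Hormad1*, and a fit of these 4 with the replicate number as a block called 5. A fit of the first paired-end batch also called none (adjusted p of 0.0792 to 0.150 for the 3 genes), and the *Ddx4* call was lost without the second XX Wildtype or the first XX Rnf12 library (adjusted p = 0.222 and 0.138). The difference between the first and second library was largely shared by these 2 conditions (r = 0.81). The reported fit did not model it, whereas the replicate block did. Summed fibroblast markers ranged from 241 to 794 CPM in XX Wildtype and from 250 to 1027 in XX Rnf12.

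**Figure D2:**
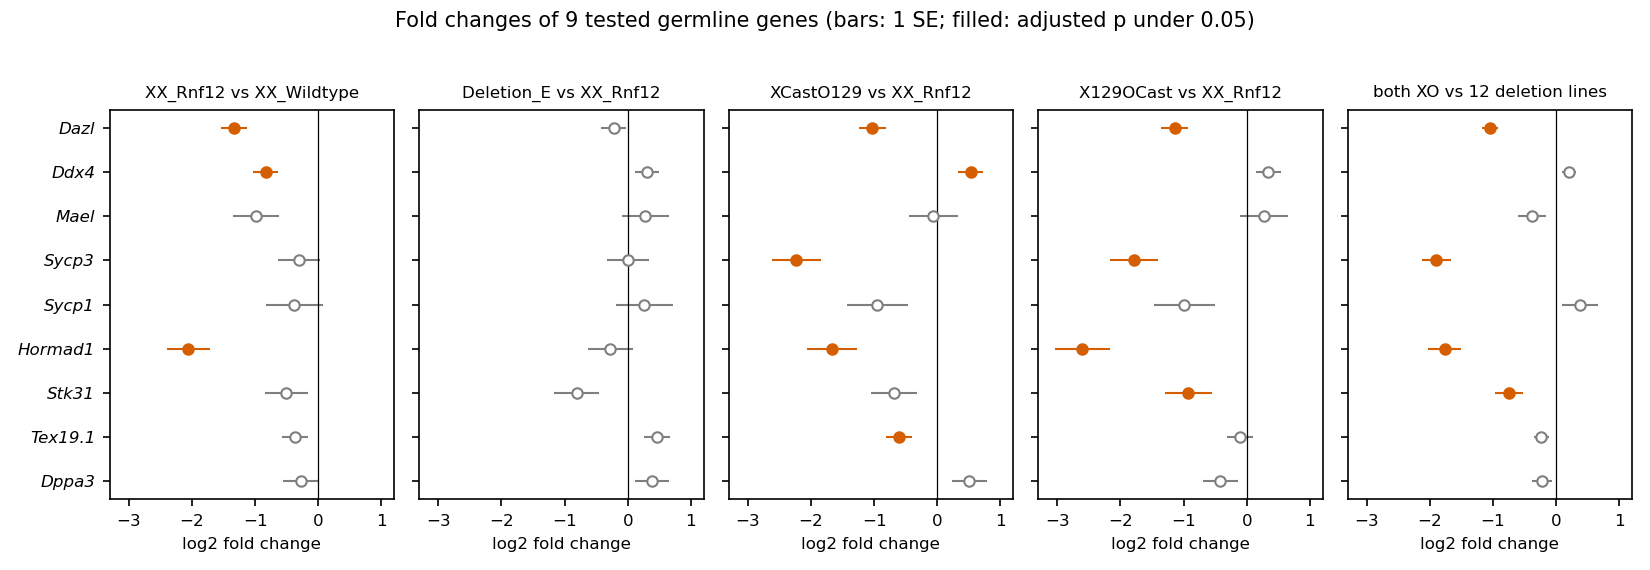
Log2 fold changes (x axis) of the 9 tested germline genes (y axis) in 5 comparisons, with bars of 1 SE and filled points for an adjusted p under 0.05. *Dazl*, *Sycp3* and *Hormad1* are below 0 and called in all 3 panels with XO cells, and no gene is called in Deletion_E.

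The XO lines were then compared with XX Rnf12. *Sycp3*, *Hormad1* and *Dazl* were lower in both XO lines, *Tex19.1* was lower in XCastO129 and *Stk31* in X129OCast, whereas *Ddx4* was higher in XCastO129. In XCastO129, 4 of the 9 genes were called lower against 19.3% of all genes, and 1 was called higher against 16.9%. In X129OCast, 4 of 9 were called lower against 25.1% of all genes, and none was called higher against 22.3%. The median of the 9 was -0.68 in XCastO129 and -0.93 in X129OCast on the log2 scale, beside -0.03 and -0.05 over all genes. With 9 genes, 4 calls stand above these shares by a few genes at most. Both XO lines share the 2 XX Rnf12 libraries as controls. In X129OCast, the loss of an X and the absence of an intact *Rnf12* copy cannot be told apart.

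Among the meiotic chromosome proteins, *Sycp3*, a component of the axis and lateral elements of the synaptonemal complex, was at 3.34 and 3.67 CPM in XCastO129 and at 5.47 and 4.06 CPM in X129OCast. All 4 values lay below those of XX Rnf12 (12.5 and 20.5 CPM). The 20 libraries of the second paired-end batch had 5.18, 16.3 and 37.4 CPM as lowest, median and highest, so that 3 of the 4 XO values were also below all of these. Its log2 fold change was -2.23 ± 0.39 (adjusted p = 0.000167) in XCastO129 and -1.79 ± 0.37 (adjusted p = 0.000654) in X129OCast. *Hormad1* was at 0.887 and 3.13 CPM in XCastO129 and at 1.27 and 0.813 CPM in X129OCast, from 13, 46, 19 and 11 reads. In XX Rnf12 it had 125 and 133 reads, and its log2 fold changes were -1.67 ± 0.40 (adjusted p = 0.00282) and -2.60 ± 0.44 (adjusted p = 7.9e-05). The XCastO129 libraries differed 3.53-fold in *Hormad1*, and without the first of them the log2 fold change was -1.03 (adjusted p = 0.0509).

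*Sycp1*, the transverse filament of the synaptonemal complex, was at 4.57 and 2.79 CPM in XCastO129, 3.33 and 3.84 CPM in X129OCast and 8.17 and 6.04 CPM in XX Rnf12. Its 4 XO values were below both XX Rnf12 values, but it was not called (log2 fold changes -0.95 ± 0.48 and -0.99 ± 0.48, adjusted p = 0.131 and 0.0982). It was called lower in both lines without a filter on low counts (adjusted p = 0.0117 and 0.00635), and in X129OCast in a fit of the X129OCast and XX Rnf12 libraries alone (adjusted p = 0.0350). In the second paired-end batch it was as low as in XO cells, with 0.887, 2.74 and 8.76 CPM as lowest, median and highest.

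Of the RNA-binding and small RNA pathway proteins, *Dazl* was at 5.46 and 5.10 CPM in XCastO129 and at 5.60 and 4.14 CPM in X129OCast. These were below both XX Rnf12 libraries (8.56 and 13.0 CPM), with log2 fold changes of -1.03 ± 0.22 (adjusted p = 0.000972) and -1.14 ± 0.22 (adjusted p = 0.000274). *Ddx4* went the other way against XX Rnf12, at 19.6 and 17.1 CPM in XCastO129 and 16.9 and 15.2 CPM in X129OCast against 11.6 and 13.8 CPM. These XO values of *Ddx4* all lay below the 20.4 and 24.9 CPM of XX Wildtype. It was called in XCastO129 (log2 fold change 0.53 ± 0.20, adjusted p = 0.0411) but not in X129OCast (0.34 ± 0.20, adjusted p = 0.163), and the call was lost without the first XX Rnf12 library (0.41, adjusted p = 0.208) and without the first XCastO129 library (0.43, adjusted p = 0.190). *Mael* was at 6.28, 4.35, 7.67 and 5.69 CPM in the XO libraries, around the 5.13 and 5.94 CPM of XX Rnf12, and was not called (adjusted p = 0.922 and 0.583). *Stk31*, a Tudor-domain protein of germ cells, was at 3.48 and 4.96 CPM in XCastO129 and 3.87 and 3.25 CPM in X129OCast, against 6.22 and 7.33 CPM. It passed in X129OCast (log2 fold change -0.93 ± 0.37, adjusted p = 0.0461) and not in XCastO129 (-0.68 ± 0.36, adjusted p = 0.153). The X129OCast call was lost with DESeq2 (adjusted p = 0.0549), with TMM factors of all genes (0.0534), with the replicate block (0.0529) and without any 1 of its 4 libraries (0.0623 to 0.193).

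*Tex19.1*, which restrains retrotransposons in germ cells and placenta, was at 77.3 and 55.4 CPM in XCastO129, below the 106 and 96.6 CPM of XX Rnf12 (log2 fold change -0.61 ± 0.21, adjusted p = 0.0297). In X129OCast it was at 99.9 and 88.2 CPM, the first of these inside the XX Rnf12 range (-0.10 ± 0.21, adjusted p = 0.712). Without either XX Rnf12 library or without the second XCastO129 library the XCastO129 call was lost (adjusted p = 0.111, 0.0502 and 0.246). *Dppa3*, also known as Stella, a maternal factor that binds UHRF1 and limits maintenance methylation, was at 32.3 and 74.4 CPM in XCastO129, a 2.30-fold gap between libraries of the same genotype, and at 31.7 and 24.7 CPM in X129OCast. XX Rnf12 lay at 36.5 and 38.8 CPM, and *Dppa3* was called in neither line (adjusted p = 0.167 and 0.238), but without the first XCastO129 library it was called higher there (0.98, adjusted p = 0.00499). Without a filter on low counts it was called higher in XCastO129 and lower in X129OCast (adjusted p = 0.00508 and 0.0259). A fit of the XCastO129 and XX Rnf12 libraries alone called 1 gene, *Sycp3*, in place of 5, whereas the same fit for X129OCast called 5 in place of 4.

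As a further reference, both XO lines were set against the 12 deletion lines of the second paired-end batch, which have 2 X chromosomes outside their deletions. *Sycp3* (log2 fold change -1.90 ± 0.24, adjusted p = 1.0e-06), *Hormad1* (-1.77 ± 0.26, adjusted p = 9.11e-06), *Dazl* (-1.05 ± 0.13, adjusted p = 9.72e-07) and *Stk31* (-0.75 ± 0.22, adjusted p = 0.00555) were lower in XO cells. These 4 of 9 genes stood beside 31.9% of all genes called lower, and none of the 9 was called higher, against 30.7%. *Ddx4*, *Mael*, *Sycp1*, *Tex19.1* and *Dppa3* were not called, with log2 fold changes between -0.38 and 0.38. In *Dazl* the 4 XO libraries spanned 4.14 to 5.60 CPM, and the lowest, median and highest of the 20 deletion libraries were 5.30, 9.73 and 22.8 CPM. The count rose to 7 without a filter on low counts. Without 1 library each, *Dppa3* was called lower (without the second XCastO129 library, -0.59, adjusted p = 0.00190), *Tex19.1* lower (without the first XCastO129 or the second Deletion F library), *Mael* lower (without the second Deletion F library) and *Ddx4* higher (without the first Deletion I library). A count of 4 of 9 genes is not far above the 31.9% of all genes that were lower in this comparison across batches.

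Between the XO lines, no member was called. These lines differ both in the X they retain and in *Rnf12*, which cannot be told apart. X129OCast against XCastO129 gave 0 of 9 genes called higher and 0 called lower, against 3.39% and 3.20% of all genes, although 2 had an unadjusted p under 0.05. The largest differences were *Hormad1* (-0.93 ± 0.49, adjusted p = 0.277) and *Dppa3* (-0.92 ± 0.28, adjusted p = 0.0575), the latter called by DESeq2 (adjusted p = 0.020). Without the first XCastO129 library, the one at 32.3 CPM of *Dppa3*, both were called (adjusted p = 0.0416 and 0.00161).

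Deletion E is the deletion line that was sequenced in the same batch as XX Rnf12. The paper describes Rnf12 +/- cells as parental to the deletion lines, without saying which of its Rnf12 +/- lines was sequenced. No member was called in Deletion E, 0 of 9 higher and 0 of 9 lower, against 0.287% and 0.371% of all genes. DESeq2 also called 0, and 2 genes had an unadjusted p under 0.05. *Stk31* was at 3.42 and 4.29 against 6.22 and 7.33 CPM (log2 fold change -0.81 ± 0.36, adjusted p = 0.373) and *Tex19.1* at 124 and 155 against 106 and 96.6 CPM (0.46 ± 0.21, adjusted p = 0.383). The other 7 genes had log2 fold changes between -0.28 and 0.38. The 12 deletion lines of the second batch against XX Rnf12, a comparison in which batch and deletions cannot be told apart, gave 1 of 9 genes lower and none higher, against 17.6% and 12.3% of all genes. The gene was *Sycp1* (log2 fold change -1.35 ± 0.32, adjusted p = 0.00448), whose call was lost without the first XX Rnf12 library (-1.11, adjusted p = 0.140).

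Within the second batch, each of the 12 deletion lines was compared with the other 11. Of 108 pairs of a gene and a line, 11 were called higher and 8 lower, against 9.35% called in either direction over all pairs of a gene and a line. Deletion C carried 6 of the 19 calls, all higher, against 33.9% of all genes called in that line. *Tex19.1* was at 205 and 244 CPM in its 2 clones, above every other library, since the other 28 reached at most 155 CPM (log2 fold change 1.39 ± 0.14, adjusted p = 4.79e-07). *Dazl* at 22.8 and 20.3 CPM (1.13 ± 0.14, adjusted p = 6.94e-06), *Sycp3* at 37.4 and 31.6 CPM (1.28 ± 0.23, adjusted p = 0.00029) and *Ddx4* at 25.9 and 22.6 CPM (0.76 ± 0.14, adjusted p = 0.000341) were also the highest of the 12 lines there. *Sycp1* (1.40 ± 0.35) and *Mael* (0.83 ± 0.27) were called too, but *Sycp1* lost its call without the first clone and *Mael* without either. *Hormad1* was not among the 6, and at 3.33 and 4.92 CPM its log2 fold change in Deletion C was -0.29 ± 0.31. Of 11 genes of the methylation machinery 7 were lower in Deletion C and none higher, among them the de novo methyltransferase gene *Dnmt3b* (-0.92 ± 0.22, adjusted p = 0.00318), the imprint maintenance gene *Zfp57* (-0.83 ± 0.13, adjusted p = 4.85e-05) and its corepressor gene *Trim28* (-0.46 ± 0.11, adjusted p = 0.00224). Of 28 other germline genes 4 were higher there, led by *Taf7l* (1.84 ± 0.27), and 1 was lower. Over all 16699 genes tested, 3114 were higher and 2550 lower in Deletion C.

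**Figure D3:**
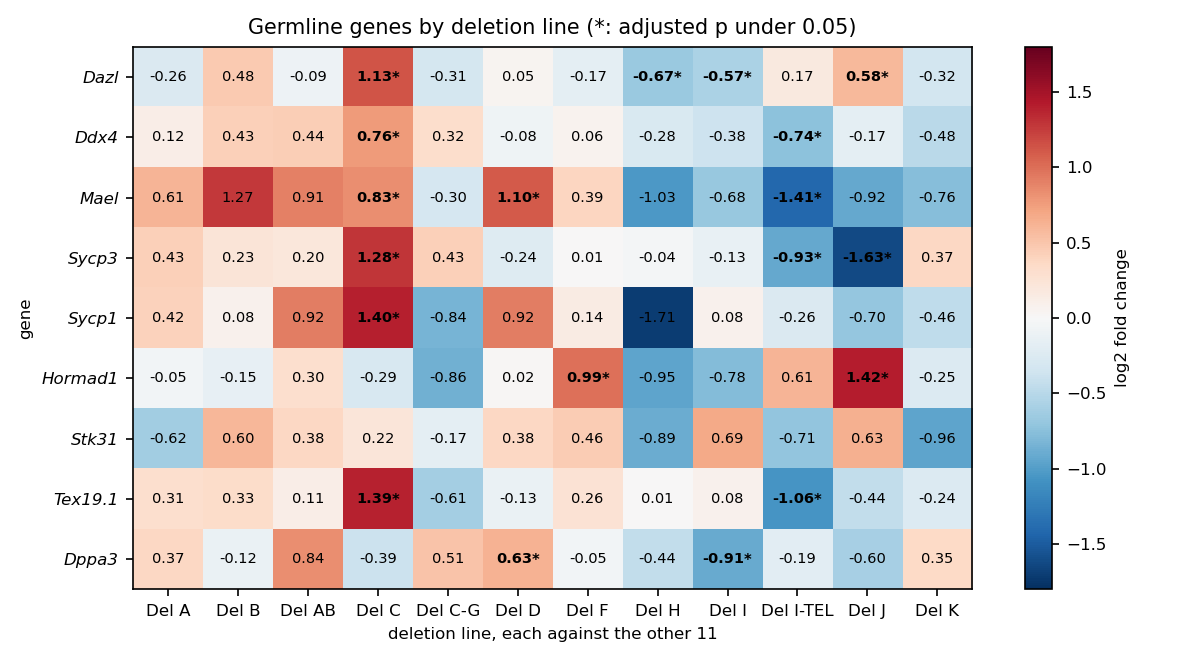
Log2 fold changes of the 9 tested genes (rows) in each of 12 deletion lines against the other 11 (columns), with a star and bold print for an adjusted p under 0.05 and colour from blue (lower) to red (higher). Deletion C has 6 stars, all above 0, and Deletion I-TEL has 4, all below 0.

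In Deletion I-TEL, 4 genes were lower and none higher, against 16.0% of all genes called in either direction. *Tex19.1* was at 48.0 and 46.6 CPM, the lowest of the 30 libraries (log2 fold change -1.06 ± 0.18, adjusted p = 0.000341), and *Mael* at 2.58 and 3.75 CPM (-1.41 ± 0.35, adjusted p = 0.00889). *Ddx4* (-0.74 ± 0.17) and *Sycp3* (-0.93 ± 0.30) were the other 2, and without either clone the calls of *Mael*, *Ddx4* and *Sycp3* were lost. Deletion J, from the same Rnf12 +/- parent, had 3 calls in both directions, against 19.8% of all genes, and 6 with DESeq2. *Hormad1* was higher there, at 11.9 and 12.6 CPM (1.42 ± 0.25, adjusted p = 0.000533), as was *Dazl* at 14.3 and 16.0 CPM (0.58 ± 0.15, adjusted p = 0.0114). *Sycp3* in Deletion J was lower, at 5.18 and 5.64 CPM (-1.63 ± 0.32, adjusted p = 0.00149), close to the 3.34 to 5.47 CPM of the XO cells. The *Dazl* call was lost without either Deletion J clone and the *Sycp3* call without the first. Other markers moved in these same lines: all 3 tested markers of 2-cell-like cells were higher in Deletion I-TEL (median log2 fold change 2.42) and in Deletion J (median 2.97), and 3 and 4 of 10 fibroblast markers were higher, with none lower. Over all 16699 genes tested, 1549 were higher and 1117 lower in Deletion I-TEL, and 1876 higher and 1430 lower in Deletion J. The part of these markers in the germline genes was not tested.

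The remaining calls were spread thinly. In Deletion D, *Mael* (15.3 and 16.1 CPM) and *Dppa3* (71.8 and 63.6 CPM) were higher, against 12.4% of all genes. Deletion I had lower *Dazl* (7.32 and 7.30 CPM) and *Dppa3* (25.9 and 25.0 CPM), against 8.70%. Deletion F had higher *Hormad1* (7.39 and 11.2 CPM), against 4.90%, and Deletion H lower *Dazl* (5.30 and 8.38 CPM), against 5.28%. Each of these 6 calls was lost without either of its own clones, and those of *Dppa3* in Deletion D and *Dazl* in Deletion I also without several libraries of other lines. No gene was called in Deletion A (5.79% of all genes), B (0.431%), AB (2.24%), C-G (1.40%) or K (1.37%), by edgeR or by DESeq2, and 0, 3, 3, 1 and 3 of the 9 genes had an unadjusted p under 0.05 in these lines. *Mael* in Deletion B, at 17.4 CPM, was the highest of all libraries with a log2 fold change of 1.27, but rests on 1 clone and was not called.

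Clones of the same line differed widely in some of these genes. *Mael* was at 15.4 CPM in the first Deletion F clone and 4.61 CPM in the second, a 3.33-fold gap. *Stk31* (15.0 and 5.16 CPM) and *Sycp1* (4.91 and 0.974 CPM) differed 2.91-fold and 5.04-fold between the Deletion I clones. *Dazl* varied least between libraries of a condition, with a median ratio of 1.08 over the 13 conditions with 2 libraries, followed by *Dppa3* (1.13), *Ddx4* (1.15) and *Tex19.1* (1.16). *Sycp1* had the highest median ratio of the tested genes, at 1.5.

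In the order of condition means, XX Wildtype was the highest of 17 in *Dazl* (27.2 CPM), *Hormad1* (26.6 CPM) and *Sycp1* (9.23 CPM), and Deletion C in *Tex19.1* (225 CPM), *Sycp3* (34.5 CPM) and *Ddx4* (24.2 CPM). The XO lines were the 2 lowest in *Dazl*, *Sycp3* and *Hormad1*. For *Dazl*, X129OCast (4.87 CPM), XCastO129 (5.28 CPM), Deletion H (6.84 CPM) and Deletion I (7.31 CPM) followed each other from the bottom, and the libraries of the XO lines and Deletion H overlapped. For *Sycp3*, XCastO129 (3.51 CPM), X129OCast (4.76 CPM) and Deletion J (5.41 CPM) came before Deletion I-TEL (8.46 CPM). The lowest condition was Deletion I-TEL for *Ddx4*, *Mael* and *Tex19.1*, Deletion H for *Sycp1*, Deletion K for *Stk31* and Deletion I for *Dppa3*.

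Reads were also assigned to the 129 or Cast allele. Shares below are of 129 reads among allelic reads pooled over the 30 libraries, with 95% Wilson intervals that cover counting error only, beside 49.9% to 54.1% per library over autosomal protein-coding genes. Allelic reads were few for several genes and were compared with no test. *Mael* was read almost entirely from the 129 allele, with 98 of 106 reads (92.5%, interval 85.8 to 96.1), and at 90.2%, 94.6% and 92.9% in the first paired-end, second paired-end and single-read batches. *Sycp3* was also mostly 129, with 177 of 232 reads (76.3%, interval 70.4 to 81.3), at 76.2% and 64.7% in the first and second paired-end batches and with 27 of 30 reads in the single-read batch. *Sycp1* leaned to Cast, with 34 129 reads of 200 (17.0%, interval 12.4 to 22.8), at 16.1%, 9.86% and 31.0% in the 3 batches, as did *Stk31* with 60 of 192 (31.2%, interval 25.1 to 38.1). *Tex19.1*, with 4144 of 10768 reads (38.5%, interval 37.6 to 39.4), and *Dppa3*, with 3681 of 9303 (39.6%, interval 38.6 to 40.6), were the best covered. Single libraries ranged from 28.1% to 44.8% for *Tex19.1*, and for *Dppa3* from 16.3% in the second clone of Deletion I, the line in which *Dppa3* was lowest, to 48.7% in the first clone of Deletion C. *Tex19.1* was at 41.3% (interval 39.1 to 43.5) in the XO libraries and at 38.1% (interval 36.5 to 39.6) in the first batch. *Ddx4* was near even (48.6%, 1218 reads, interval 45.8 to 51.4), and *Tex101* had 8 allelic reads. *Dazl* (42.1%, 458 reads, interval 37.7 to 46.7) and *Hormad1* (41.4%, 232 reads, interval 35.2 to 47.8) had intervals that overlapped those of *Tex19.1* and *Dppa3*. In the first and second paired-end batches *Dazl* was at 36.5% and 46.3%, and *Hormad1* at 48.5% and 33.0%. Shares can move with how many reads of each genome align at the SNPs, which was not tested.

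The genes were also compared with each other over the 30 libraries, on log2 CPM (prior count of 2) less the mean of the library batch. The libraries share batches, clones and depth, so Pearson's r is a description. The single-read batch holds only XO libraries, so the differences between XX and XO cells described above are removed before r. Of the 36 pairs among 9 genes, 30 had r above 0, with a median of 0.37. *Mael* and *Sycp1* (0.76), *Mael* and *Ddx4* (0.76), *Sycp3* and *Tex19.1* (0.67) and *Ddx4* and *Tex19.1* (0.67) were the closest pairs. *Dazl* and *Hormad1* were at 0.59, and at 0.77 without the Deletion C libraries. *Hormad1* was at -0.32 with *Sycp3* and -0.23 with *Tex19.1*, and *Dppa3* between -0.17 and 0.33 with the other 8. *Dazl* and *Tex19.1*, at 0.29 over all libraries, were at -0.11 without Deletion C.

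**Figure D4:**
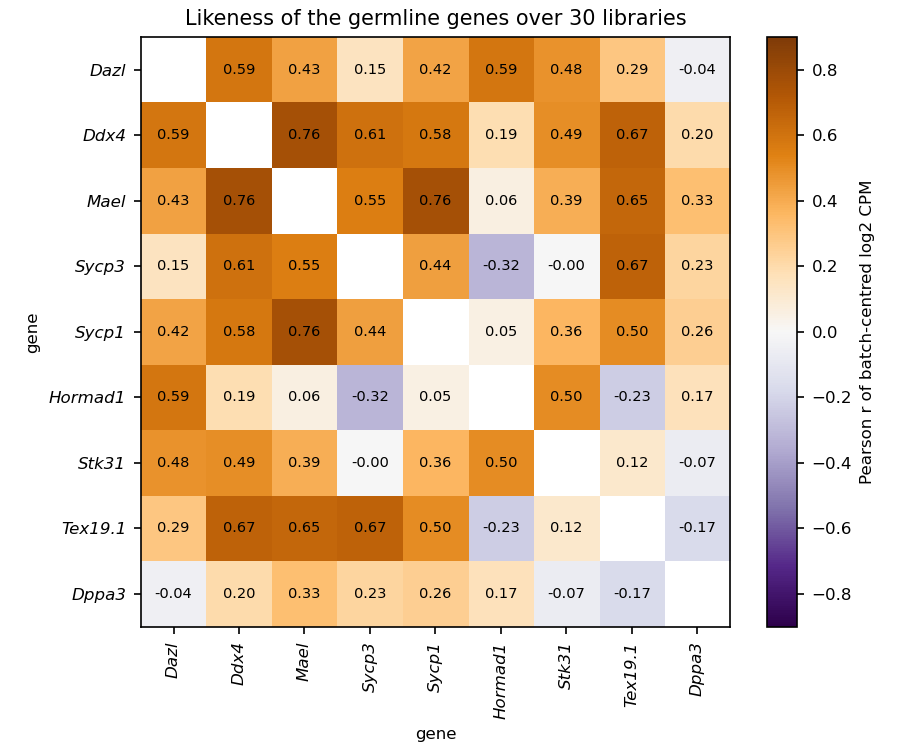
Pearson's r between the 9 tested genes (rows and columns) over 30 libraries, from log2 CPM less the batch mean. *Mael*, *Ddx4* and *Sycp1* form the closest group, and *Hormad1* has negative values with *Sycp3* and *Tex19.1*.

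Among 13911 other protein-coding genes, those nearest to the mean of the 9 were *Mov10l1* (r = 0.83), *8030474K03Rik* (0.83), *Gm4779* (0.81), *Rbm44* (0.80) and *Cpn1* (0.80). *Mov10l1*, a piRNA helicase gene, is itself among the other germline genes below. *8030474K03Rik* and *Gm4779* are X-linked.

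Other germline genes were taken as a list of 32, of which 28 passed the minimum level. In XX Rnf12 against XX Wildtype, 5 of 28 were lower and none higher, beside 1.68% and 1.32% of all genes, with a median log2 fold change of -0.84 beside 0.00 over all genes. The cohesin gene *Smc1b* (-2.62 ± 0.43, adjusted p = 0.00171), the piRNA co-chaperone gene *Fkbp6* (-2.15 ± 0.56, adjusted p = 0.0411) and the meiotic histone reader gene *Zcwpw1* (-1.68 ± 0.36, adjusted p = 0.0111) changed most. In the XO lines genes of the list were called in both directions. XCastO129 against XX Rnf12 had 6 higher and 2 lower of 28 (median 0.14), beside 16.9% and 19.3% of all genes. X129OCast had 9 higher and 6 lower of 28 (median 0.13), beside 22.3% and 25.1%, so that the 6 higher in the first line and the 6 lower in the second are near the shares of all genes.

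*Tdrd1*, a Tudor protein of the piRNA pathway, was at 1.44 and 1.14 CPM in XX Rnf12, 5.12 and 5.30 CPM in XCastO129 and 8.47 and 8.42 CPM in X129OCast (log2 fold changes 2.00 ± 0.34 and 2.70 ± 0.33, adjusted p = 0.000126 and 2.48e-06). *Fkbp6* (1.75 ± 0.57 and 3.36 ± 0.57) and *Zcwpw1* (1.73 ± 0.36 and 2.17 ± 0.36) were also called higher in both XO lines. The XCastO129 libraries were far apart in both genes: *Fkbp6* was at 15.3 CPM in the first and 3.94 CPM in the second, against 2.69 and 3.02 CPM in XX Rnf12, and *Zcwpw1* at 26.1 and 8.91 CPM against 3.59 and 6.93 CPM. In X129OCast *Fkbp6* was at 22.3 and 36.7 CPM and *Zcwpw1* at 26.2 and 21.1 CPM, above XX Rnf12 in both libraries. *Hormad2*, a relative of *Hormad1*, was lower in X129OCast (-3.63 ± 0.77, adjusted p = 0.000725). *Fkbp6* and *Zcwpw1*, lower in XX Rnf12 than in XX Wildtype, were higher in XO cells than in XX Rnf12, unlike *Dazl* and *Hormad1*. Against the 12 deletion lines, 12 of the 28 were lower in XO cells and 5 higher, beside 31.9% and 30.7% of all genes, with *Hormad2* (-2.63 ± 0.42) and *Smc1b* (-2.46 ± 0.30) lowest. None of the 28 was called in Deletion E against XX Rnf12 (median 0.07), and 11 were higher and none lower in the second batch against XX Rnf12 (median 0.62), beside 12.3% and 17.6% of all genes. X129OCast against XCastO129 had 2 lower, *Hormad2* (-3.47 ± 0.78) and *Dnd1* (-1.003 ± 0.23), beside 3.20% of all genes. *Hormad2* was at 1.57 and 11.7 CPM in XCastO129 and at 1.00 and 0.148 CPM in X129OCast, so that the first XCastO129 library lay close to the X129OCast libraries.

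**Figure D5:**
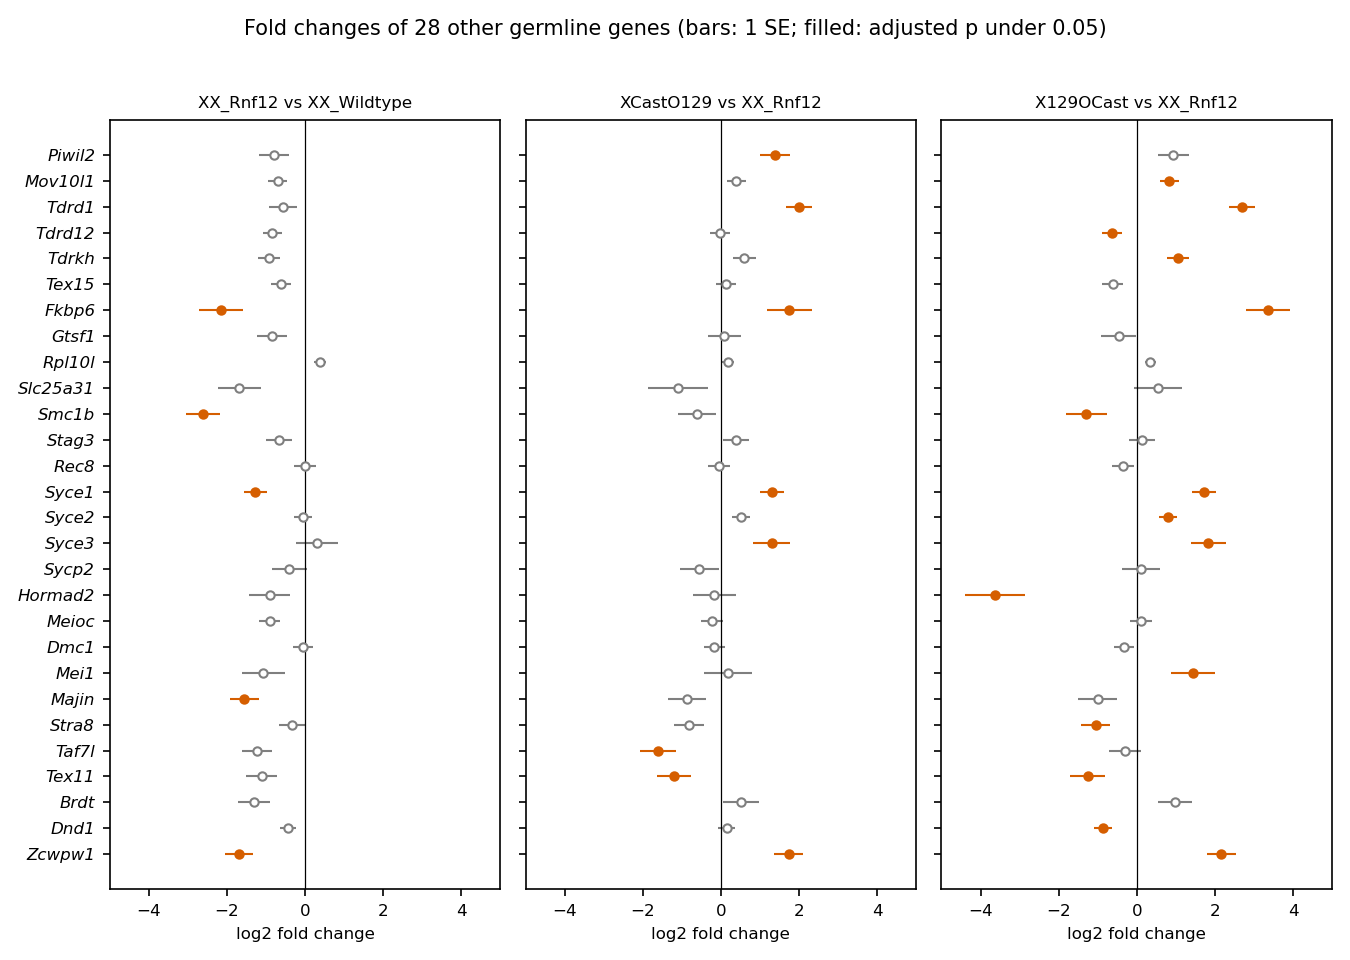
Log2 fold changes (x axis) of 28 other germline genes (y axis) in XX_Rnf12 against XX_Wildtype and in each XO line against XX_Rnf12, with bars of 1 SE and filled points for an adjusted p under 0.05. In the first panel the 5 called genes are below 0, and in the XO panels called genes lie on both sides.

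Of 11 genes of the methylation machinery, 6 were higher and 2 lower in XCastO129 (median 0.36), beside 16.9% and 19.3% of all genes, and 6 were higher and 3 lower in X129OCast (median 0.30), beside 22.3% and 25.1%. The de novo methyltransferase gene *Dnmt3b* was at 202 and 189 CPM in XX Rnf12, 613 and 717 CPM in XCastO129 and 1053 and 1051 CPM in X129OCast (log2 fold changes 1.77 ± 0.27 and 2.43 ± 0.28, adjusted p = 5.29e-05 and 1.04e-06). *Dnmt3a*, the other such enzyme, was at 277 and 197 CPM in XX Rnf12, 678 and 556 CPM in XCastO129 and 1285 and 1189 CPM in X129OCast (1.38 ± 0.26 and 2.38 ± 0.27), and was higher in X129OCast than in XCastO129 (1.00 ± 0.26, adjusted p = 0.0256). *Dnmt3l*, their cofactor, was higher in both lines than in XX Rnf12 (1.01 ± 0.32 and 0.87 ± 0.32). It was at 153 and 213 CPM in XX Rnf12, 391 and 348 in XCastO129, and 338 and 333 in X129OCast. XX Wildtype had 379 and 410 CPM, so *Dnmt3l* in XO cells was not above that line. *Tet2*, a methylcytosine dioxygenase, was lower in both than in XX Rnf12 (-0.49 ± 0.16 and -1.06 ± 0.16). XCastO129 had 199 and 175 CPM of *Tet2*, against 253 and 273 in XX Rnf12 and 169 and 129 in XX Wildtype. Against the 12 deletion lines, 7 of 11 were higher in XO cells and none lower, beside 30.7% and 31.9% of all genes. *Tet2* was the 1 gene of this list that differed between XX Rnf12 and XX Wildtype (0.82 ± 0.16, adjusted p = 0.00499), and none differed in Deletion E. The second batch against XX Rnf12 had 2 higher and 5 lower, beside 12.3% and 17.6% of all genes.

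Among 13 repressors of germline genes, PRC1.6 subunits and their partners, 4 were higher and 3 lower in XCastO129 and 5 higher and 3 lower in X129OCast against XX Rnf12. The heterochromatin protein gene *Cbx3* (1.01 ± 0.09 and 1.25 ± 0.09), the E2F partner gene *Tfdp1* (0.79 ± 0.09 and 0.85 ± 0.09) and the histone methyltransferase gene *Ehmt2* (0.75 ± 0.12 and 1.03 ± 0.12) were higher in both. The 3 that were lower were the same genes in both lines: *Rnf2*, the ubiquitin ligase of PRC1 (-0.64 ± 0.14 and -0.80 ± 0.14), *Wdr5* (-0.56 ± 0.10 and -0.49 ± 0.10) and the X-linked histone demethylase gene *Kdm5c* (-0.64 ± 0.08 and -0.57 ± 0.08). Of all genes, 16.9% were higher and 19.3% lower in XCastO129, and 22.3% and 25.1% in X129OCast. The 3 lower of 13 are thus near the shares of all genes. Both lines share the XX Rnf12 libraries as controls, and *Kdm5c* lost a copy with the X in XO cells. *Wdr5* was higher in XX Rnf12 than in XX Wildtype (0.38 ± 0.10, adjusted p = 0.0490), the 1 call of this list there. Against the 12 deletion lines, 7 were higher and 2 lower in XO cells, beside 30.7% and 31.9% of all genes. The second batch against XX Rnf12 had 1 higher and 7 lower, beside 12.3% and 17.6%.

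Of 8 genes of primordial germ cell specification, 2 were lower and none higher in XCastO129, beside 19.3% and 16.9% of all genes. In X129OCast, 5 were lower and 1 higher, beside 25.1% and 22.3%. The 2 lower in XCastO129 are near the share of all genes. *Prdm14*, a regulator that represses the de novo methyltransferases, was at 76.9 and 81.7 CPM in XX Rnf12, 27.5 and 29.2 CPM in XCastO129 and 17.5 and 17.4 CPM in X129OCast (-1.48 ± 0.11 and -2.18 ± 0.12, adjusted p = 5.08e-09 and 3.88e-11). It was also lower in X129OCast than in XCastO129 (-0.70 ± 0.12, adjusted p = 0.00184). *Tfap2c* was lower in XX Rnf12 than in XX Wildtype (-0.79 ± 0.15, adjusted p = 0.00499). Of the 2 X-linked inhibitors of MAPK signalling, *Dusp9* was lower in XCastO129 (-1.01 ± 0.30, adjusted p = 0.0133). It was at 129 and 82.8 CPM there, against 288 and 139 CPM in XX Rnf12. *Klhl13* was lower in X129OCast (-3.69 ± 0.31, adjusted p = 1.78e-08), at 88.1 and 84.5 CPM against 1245 and 978 CPM in XX Rnf12. XO cells lost a copy of both genes with the X, and the part of this loss was not tested.

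Markers of other cell states moved in the same comparisons. Their counts stand beside 19.3% of all genes lower and 16.9% higher in XCastO129. For X129OCast these shares were 25.1% and 22.3%, and 1.68% of all genes were lower in XX Rnf12 than in XX Wildtype. Of 8 pluripotency markers, 4 were lower and 1 higher in XCastO129 and 5 were lower and none higher in X129OCast, *Nanog* by -0.81 ± 0.10 and -1.42 ± 0.10. Of 8 markers of epiblast and differentiating cells, 1 was higher in XCastO129 and 3 were higher and 1 lower in X129OCast, with *Otx2* (1.18 ± 0.30) and *Pou3f1* (1.17 ± 0.26) among those higher. Their summed level was 106 to 114 CPM in XX Rnf12, 89.9 to 180 in XCastO129 and 230 to 253 in X129OCast. Of 10 fibroblast markers, 1 was higher in XCastO129 and 2 were lower in X129OCast. Markers of 2-cell-like cells, which can express germline genes, were near 0: 5 markers summed to 11.4 to 13.9 CPM in XX Wildtype, 2.38 to 5.23 in XX Rnf12 and 4.13 to 6.19 in the XO lines, *Zscan4c* was at 0 in 7 libraries, and 2 of the 3 tested, *Usp17lc* and *Zfp352*, were lower in XX Rnf12 than in XX Wildtype. The part of these cell states in the levels of *Dazl*, *Sycp3* and *Hormad1* was not tested.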

How the data were processed

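RNA-seq of 30 mESC libraries of 17 conditions was used. Per the labels, polyadenylated RNA was prepared with a stranded kit, and the authors deposited raw counts per gene of all reads, of 129 reads and of Cast reads. The submitters' processing notes name Trim Galore 0.6.7, HISAT2 2.2.1, SAMtools 1.10 and HTSeq 0.12.4, and reads were split by strain SNPs. Of 55421 genes in the table, 55240 were matched to GENCODE M21 symbols. The study describes replicates of XX, XCastO129 and deletion cells as independent clones, without saying whether XX covers both XX Wildtype and XX Rnf12. For X129OCast the sources used here do not say. Where replicates are not separate clones, p-values measure only the spread between these samples, which may be technical.

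Counts were fitted with edgeR 4.0.16 (R 4.3.3; quasi-likelihood test, TMM factors of autosomal genes, 1 term per condition, all libraries) for 16699 genes with at least 0.5 CPM averaged over condition means, and p-values were adjusted over all of them (Benjamini-Hochberg, threshold 0.05). SE is the absolute log2 fold change over the square root of F. CPM are normalised with the same factors, TPM use merged exon lengths of GENCODE M21, and the test was checked on counts with known changes. Total counts were 8816184 to 21181405 per library, and the precision of low genes such as *Tex101* is limited by them. Alternatives were DESeq2 1.42.0, other scalings, other filters, a replicate block, fits of the compared groups alone and leaving out each library. All 10 germline genes, up to 3 called genes per list and comparison with the largest fold change, *Rlim* and the 5 genes most correlated with the 9 tested were to be named; other named markers were chosen after their values were seen. The genes and lists were chosen with earlier results of these data known, and the motifs after the sequences were seen.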

Additional observations from a re-analysis of the deposited data

How the results depend on the processing

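Of 601 values under other scalings, filters, tools and fits, 570 kept their direction and side of the threshold, 15 lost a call, 15 gained one and 1 turned its sign. Of 826 values with 1 library left out, these numbers were 737, 63, 8 and 18. Fits of the compared groups alone called 1 of 9 genes in XCastO129 against XX Rnf12 and 0 in XX Rnf12 against XX Wildtype, where a replicate block in these 4 libraries called 5 and a fit of the first paired-end batch 0 (the last 2 fits were chosen after seeing the data). Without a filter on low counts, 7 genes in place of 5 were called in XCastO129 (adding *Sycp1* lower and *Dppa3* higher), 6 in place of 4 in X129OCast (adding *Sycp1* and *Dppa3* lower), 4 in place of 3 in XX Rnf12 against XX Wildtype (adding *Mael* lower), 7 in both XO lines against the second batch, 2 in X129OCast against XCastO129 (1 with DESeq2), 1 in Deletion E and 42 of the gene and line pairs, 18 of them among the 19 reported. Leaving out 1 library gave 3 to 4 calls in XCastO129, 3 in X129OCast, 4 to 6 in both XO lines against the second batch, 0 to 2 between the XO lines, 2 to 3 in XX Rnf12 against XX Wildtype, 0 in Deletion E, 0 to 1 in the second batch against XX Rnf12 and 14 to 24 gene and line pairs. The cause of these changes was not tested. Over the libraries with at least 20 allelic reads of the gene alone (3 for *Dazl* and 2 for *Sycp1*), the share of 129 reads was 35.2% for *Dazl* and 23.8% for *Sycp1*, against 42.1% and 17.0% over all 30.

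With a replicate block over all libraries the counts of calls were 5, 3, 4, 0, 3, 0 and 1 in the 7 comparisons and 18 of the line pairs. Replicate numbers were not taken to pair libraries in the reported fit. Differences between replicates correlated at -0.46 to 0.81 over 78 pairs of groups (median 0.02). The highest value, 0.81, was that of XX Wildtype and XX Rnf12, so their reported comparison leaves a shared replicate difference unmodelled. In that comparison, 501 genes were called over all genes, 943 without a filter, 1 in the compared groups alone, 1675 with a block there and 2 in the first batch. Over all genes XCastO129 had 6051 calls (1734 alone with XX Rnf12), X129OCast against XCastO129 1101 (34 alone) and Deletion E 110 (186 with DESeq2, 657 without a filter, 1 alone, 17 in the first batch). Without a filter, calls rose from 967 to 1482 in Deletion A, 374 to 940 in AB, 72 to 347 in B (212 with DESeq2), 234 to 599 in C-G, 819 to 1378 in F, 881 to 1521 in H and 229 to 744 in K (403 with DESeq2, 372 in the second batch alone).

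Signs turned for 19 log2 fold changes that were not called, 1 of them with the replicate block (*Sycp3* in Deletion E, 0.021) and the others in fits without 1 library, given here as the lowest and highest value over the libraries left out. In XCastO129 against XX Rnf12, *Mael* ranged from -0.35 to 0.18 (0.05 without the second XX Rnf12 library) and *Dppa3* from -0.22 to 0.98. In both XO lines against the second batch *Dppa3* ranged from -0.59 to 0.013. Between X129OCast and XCastO129, *Dazl* ranged from -0.35 to 0.085, *Sycp1* from -0.35 to 0.36, *Hormad1* from -1.57 to 0.24 and *Stk31* from -0.48 to 0.035. In XX Rnf12 against XX Wildtype, *Sycp3* ranged from -0.77 to 0.40 and *Dppa3* from -0.64 to 0.21. In Deletion E, *Dazl* ranged from -0.50 to 0.11 and *Sycp3* from -0.31 to 0.40. In the second batch against XX Rnf12, *Dazl* ranged from -0.31 to 0.29, *Sycp3* from -0.43 to 0.29 and *Stk31* from -0.17 to 0.066. Depth limits *Hormad1* in XO cells, with 11 to 46 reads per library, and *Tex101*.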
